A study of Mus musculus with 12 samples.

Results

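The pregranulosa fate genes are 7 genes named for the supporting cell lineage of the fetal ovary: Foxl2, Fst, Wnt4, Rspo1, Irx3, Runx1 and Bmp2. They were taken by symbol and not by a rule on measured values, though with earlier results of these data known. All 7 are among the 12845 genes of both deposited tables. Gonads of mouse embryos at E13.5, from females mated to Oct4GFP males (strain given as Oct4GFPxICR), were sorted by flow cytometry. GFP-positive cells gave primordial germ cells (PGCs), from which eggs and sperm descend, and GFP-negative cells gave the gonadal soma. The 12 libraries form 4 groups of 3, the PGCs and the soma of each sex. The groups differ in sex and in GFP sort, and all carry the reporter without any stated treatment. The soma is every gonadal cell without GFP, so pregranulosa cells are a part of it that was not isolated. A fixed amount of ERCC control RNA was added per sorted cell.

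In the bipotential gonad, supporting cells become Sertoli cells in a testis or pregranulosa cells in an ovary. The ovarian route is known for the secreted ligands Wnt4 and Rspo1, which act through beta-catenin, and for the forkhead transcription factor Foxl2. Runx1 is a further transcription factor of the fetal ovarian supporting cells, Irx3 is a homeobox factor, Bmp2 is a secreted ligand of the BMP family, and Fst encodes follistatin, which binds and blocks activins.

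Promoter sequence in RefSeq (build GRCm38.p6) was at hand for 5 of the 7 genes, Rspo1, Wnt4, Irx3, Foxl2 and Runx1. The Rspo1 and Wnt4 stretches are shown because these ligands of the same pathway, both on chromosome 4, gave different patterns over the groups. The third sequence is shown because it held the only motif matches in the 6 windows of these genes. The Rspo1 stretch is the 250 bases before its start (chr4:124986180-124986429, plus strand), the Wnt4 stretch the 104 bases before its annotated 5′ exon (chr4:137277385-137277488, plus strand), and the Runx1 site lies 23 to 42 bases after the distal start (chr16:92826033-92826052, minus strand).
Rspo1: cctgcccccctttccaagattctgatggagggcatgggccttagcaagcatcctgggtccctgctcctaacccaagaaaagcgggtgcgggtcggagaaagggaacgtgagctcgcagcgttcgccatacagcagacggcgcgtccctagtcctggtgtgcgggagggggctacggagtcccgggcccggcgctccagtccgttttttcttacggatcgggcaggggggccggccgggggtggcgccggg
Wnt4: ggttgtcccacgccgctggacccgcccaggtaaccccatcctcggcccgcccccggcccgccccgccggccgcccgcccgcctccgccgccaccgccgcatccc
Runx1: TAAACAACCACAgaACCACA

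Capitals in the Runx1 site mark the FOX letters TAAACA and a pair of ACCACA, which is the RUNX motif TGTGGT read on the other strand. The search covered both strands of windows of 300 bases, from 250 before to 50 after each start. The letters sought were CTTTGA or else CTTTGT for TCF/LEF factors, TGTGGT for RUNX, AGATAA or else TGATAA for GATA factors, AAGGTCA for NR5A1 and TAAACA for FOX. Of 32851 promoter windows of the genome, 31.2% held the TCF/LEF letters, 16.8% RUNX, 18.6% GATA, 4.72% NR5A1 and 13.4% FOX. A match describes the letters only. The windows differ in base composition, with 69.0% G and C in that of Rspo1, 84.3% in that of Wnt4 and 45.0% in that of the distal Runx1 start.

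Depth ran from 6454322 reads (female PGC replicate 2) to 24791414 (male soma replicate 2), with a median of 202 to 894 reads per gene. The sorted groups carried the markers they were named for: 13 germ cell markers summed to between 4648 and 6549 CPM in the 6 PGC libraries and to between 13.4 and 238 in soma, where CPM are reads scaled to a common library total. The 12 gonadal stroma markers summed to at least 10113 CPM in soma and at most 213 in PGCs. Some libraries of the female groups stood apart in marker sums. Germ cell markers summed to 150, 238 and 38.7 CPM in female soma replicates 1, 2 and 3, against 13.4 to 18.2 in male soma. Macrophage markers summed to 14.3 CPM in female PGC replicate 2 against 4.97 and 6.50 in the other female PGC libraries. Counts of members called are therefore also given without 3 female libraries, PGC replicate 2 and soma replicates 1 and 2, a choice made after seeing the data. This left 1 female soma library, assumed to vary like the libraries of the other groups. Such counts thus do not measure the spread within female soma.

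In soma, 5 of the 7 genes were higher in females than in males: Foxl2, Fst, Irx3, Rspo1 and Runx1. Wnt4 and Bmp2 were present in the soma of both sexes and did not pass the test. The test was limma on the deposited read depth log2 values (Benjamini-Hochberg adjustment over 12845 genes, adjusted p under 0.05), by which 13.3% of all genes were higher in female soma. The members had a median log2 difference of 1.66 against 0.01 over all genes. Every analysed gene had at least 5.07 CPM in 3 libraries, a level that Foxl2 and Fst reached in female soma only. Their female soma excess, its p-values and their place in these counts thus partly follow from having been kept. The number called was also 5 without the 3 female libraries. In CPM, 6 of the 7 genes were higher in every female soma library than in every male one, as were 22.7% of all genes, and Wnt4 was the exception. The labels do not say whether libraries of a group came from separate embryos or litters, so p-values measure the spread between these libraries. In sorted tissue of mixed cells, fewer cells of a type and less RNA per cell cannot be told apart.

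**Figure D1:**
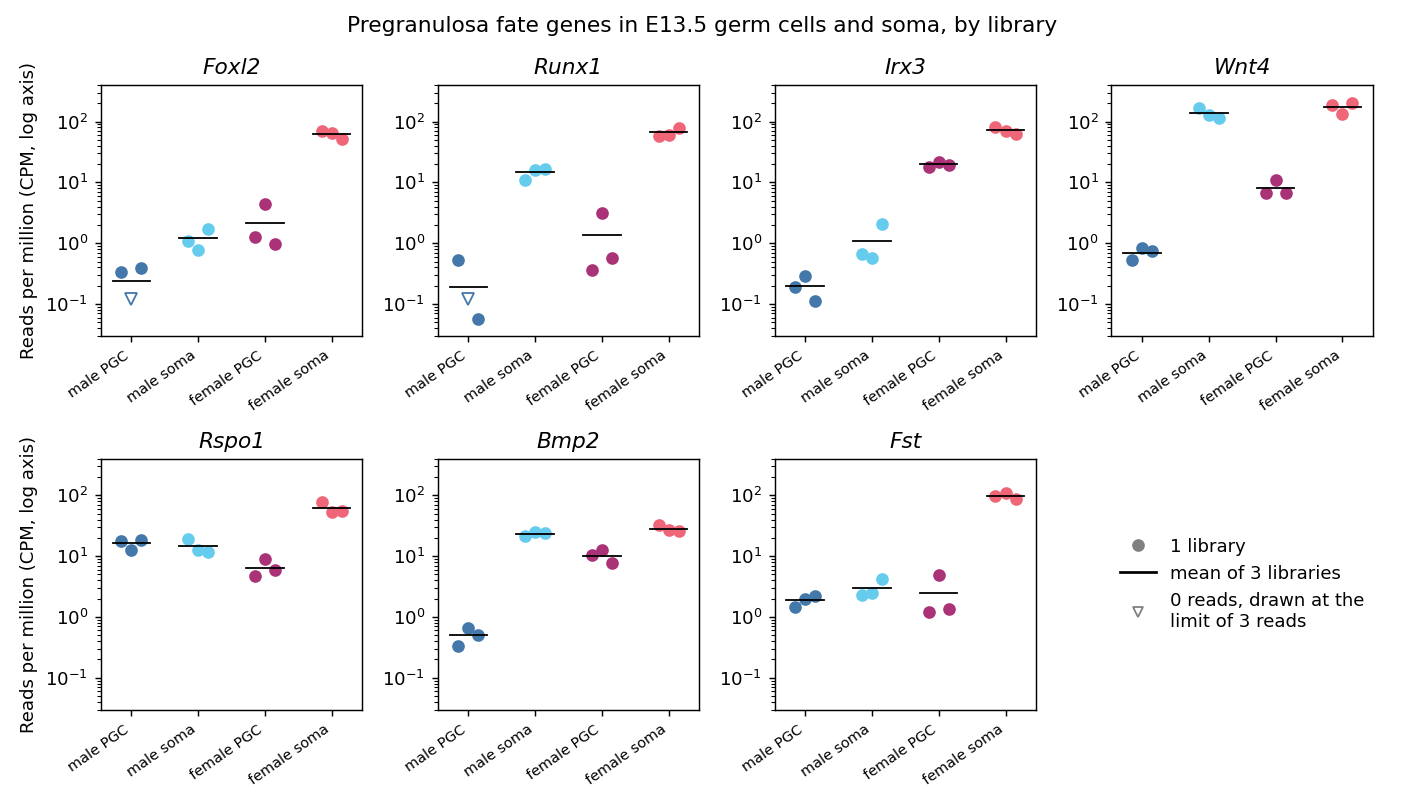
Read share (CPM, log axis) of the 7 pregranulosa fate genes in each library of the 4 groups, with a line at the mean of 3 libraries and open triangles for 0 reads, drawn at the limit of 3 reads. Foxl2, Fst and Irx3 separate female from male soma by far more than the spread between libraries, Wnt4 overlaps between them, and Irx3 and Bmp2 sit closest to the female soma level in female PGCs.

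Foxl2, the transcription factor that maintains the ovarian supporting lineage (chromosome 9, 98955288 to 98958543 of GRCm38, plus strand, ENSMUSG00000050397.4), stood at 71.2, 63.7 and 51.5 CPM in the 3 female soma libraries. It stood at 1.09, 0.766 and 1.74 in male soma. The ratio of the means was 51.8 and the read depth log2 difference 3.98 ± 0.31 (SE, n = 3 and 3, limma adjusted p = 5.78e-07). The groups did not overlap, and the lowest female library was far above the highest male library. Foxl2 reached 5.07 CPM, the least that every analysed gene had in 3 libraries, in female soma only. In PGCs Foxl2 was low: 1.25, 4.34 and 0.956 CPM in females and 0.335, 0 and 0.395 in males, where the count of 0 allows up to 0.123 CPM. Each female PGC library lay above each male PGC library, and female PGC replicate 2 held the highest value (log2 difference 1.33 ± 0.31, limma adjusted p = 0.00172). Foxl2os, a transcript from the opposite strand that shares 12 bases with Foxl2, stood at 27.8, 28.2 and 19.5 CPM in female soma and at 0.765, 1.13 and 2.18 in male soma. In female PGCs it stood at 2.73, 2.94 and 3.16 CPM, a narrower range than that of Foxl2. The kit was directional, but with a strand setting of the counting not given in the sources used here, reads of overlapping genes cannot be told apart with certainty.

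Runx1 (chromosome 16, 92601466 to 92826149, minus strand, ENSMUSG00000022952.17) stood at 58.1, 61.1 and 79.7 CPM in female soma and at 11.1, 16.1 and 16.6 in male soma. The ratio of the means was 4.53 (log2 difference 1.66 ± 0.33, limma adjusted p = 0.00251). Male soma thus held Runx1 transcripts well above the PGC level. In PGCs its values were 0.358, 3.10 and 0.574 CPM in females and 0.526, 0 and 0.0565 in males, and these groups overlapped. The sex difference in PGCs (0.91 ± 0.33, limma adjusted p = 0.0277) depended on replicate 2 of female PGCs: without it the value was 0.44 with an adjusted p of 0.146. Leaving out male PGC replicate 2 (0.72, adjusted p = 0.107) or 3 (0.82, adjusted p = 0.0821) also ended the call. With all libraries kept, it ended with the compared groups alone (adjusted p = 0.07), with array weights (0.68, adjusted p = 0.0744) and with limma's voom on whole reads (2.63, adjusted p = 0.0951). Macrophages also transcribe Runx1, and 14 macrophage markers summed to between 499 and 782 CPM in female soma and between 241 and 331 in male soma. All 14 had reads in the soma of both sexes, and 11 of 14 were higher in female soma. Runx1 was highest in female soma replicate 3, where the macrophage sum was lowest, and the part of macrophages in the sex difference was not tested.

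Irx3 (chromosome 8, 91798525 to 91802067, minus strand, ENSMUSG00000031734.13) differed between the sexes in both compartments. It stood at 82.2, 70.4 and 62.3 CPM in female soma against 0.655, 0.565 and 2.07 in male soma. In PGCs it stood at 18.2, 21.8 and 19.6 CPM in females against 0.191, 0.287 and 0.113 in males. The log2 differences were 4.23 ± 0.20 in soma (limma adjusted p = 6.36e-09) and 3.61 ± 0.20 in PGCs (adjusted p = 6.7e-09). Female libraries were all far above male ones in each compartment, and the test of whether the sex difference was unequal between soma and PGCs gave 0.61 ± 0.29 (adjusted p = 0.0835). Without male soma replicate 3, which held the highest male value, that difference was 0.90 with an adjusted p of 0.00276. With limma's voom on whole reads it was -0.13 (adjusted p = 0.917), and in the cell number values -1.14 ± 0.76 (limma adjusted p = 0.207). The ratio of mean CPM, female to male, was 65.4 in soma and 101 in PGCs. Male PGCs had 4, 7 and 2 reads, and the read depth values compress such low levels. Irx5, a neighbour of Irx3 in the same family, followed it at a lower level, with means of 9.66 CPM in female soma, 5.14 in female PGCs and 0.42 in each male group. Its log2 differences were 1.55 ± 0.14 in soma and 1.09 ± 0.14 in PGCs (limma adjusted p = 3.05e-06 and 1.33e-05). An antisense gene, Irx3os, overlaps 1653 bases of Irx3 and is not among the genes of the tables.

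Wnt4 (chromosome 4, 137277489 to 137299726, plus strand, ENSMUSG00000036856.4) was abundant in the soma of both sexes. Its values were 187, 131 and 205 CPM in female soma and 168, 126 and 116 in male soma, and the groups overlapped. The log2 difference was 0.26 ± 0.18 (limma adjusted p = 0.34), which does not show that the levels were equal. In PGCs the sexes separated: 6.80, 11.2 and 6.60 CPM in females against 0.526, 0.820 and 0.734 in males. The ratio of these means was 11.8 (log2 difference 2.05 ± 0.18, limma adjusted p = 3.66e-07). It rests on 11, 20 and 13 reads in the male PGC libraries.

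Rspo1 (chromosome 4, 124986430 to 125009099, plus strand, ENSMUSG00000028871.7), which amplifies Wnt signals at the cell surface, moved in opposite directions in the compartments. In soma it was higher in females, at 77.8, 52.8 and 55.1 CPM against 18.9, 12.8 and 11.9 in males (log2 difference 1.49 ± 0.18, limma adjusted p = 3.54e-05). In PGCs it was lower in females, at 4.65, 8.83 and 5.93 CPM against 17.7, 12.6 and 18.7 in males (-0.98 ± 0.18, limma adjusted p = 0.000265). Neither pair of groups overlapped. The 2 male groups overlapped (log2 difference of soma from PGC -0.20 ± 0.18, limma adjusted p = 0.3), which does not show equal levels. Rspo1 was called lower in male soma after median centring (-0.45, limma adjusted p = 0.0289) and quantile normalization (-0.70, limma adjusted p = 0.00247).

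Bmp2 (chromosome 2, 133552159 to 133562885, plus strand, ENSMUSG00000027358.6) had close levels in the soma of both sexes, 32.7, 26.7 and 25.4 CPM in females and 21.6, 25.4 and 23.6 in males. The CPM ranges did not overlap but nearly touched, and the read depth difference was 0.16 ± 0.14 (limma adjusted p = 0.444). In PGCs it was higher in females, at 10.5, 12.5 and 7.65 CPM against 0.335, 0.656 and 0.508 (log2 difference 1.97 ± 0.14, limma adjusted p = 4.36e-08). The ratio of the PGC means was 20.5, with 7, 16 and 9 reads in the male PGC libraries.

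Fst (chromosome 13, 114452290 to 114458951, minus strand, ENSMUSG00000021765.9) was high in female soma alone among the 4 groups. Only through this group did it reach the 5.07 CPM that every analysed gene had in 3 libraries. It stood at 97.2, 109 and 85.6 CPM there and at 2.29, 2.50 and 4.24 in male soma, a ratio of means of 32.3 (log2 difference 3.71 ± 0.27, limma adjusted p = 2.82e-07). In PGCs it stood at 1.21, 4.96 and 1.34 CPM in females and 1.48, 2.01 and 2.20 in males. The PGC groups overlapped and the difference was 0.01 ± 0.27 (limma adjusted p = 0.985).

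In PGCs as a whole, 5 of the 7 genes were higher in females (Irx3, Wnt4, Bmp2, Foxl2 and Runx1), while 32.8% of all genes were higher. Rspo1 was the 1 member that was lower, and 32.5% of all genes were. The median over the members was 1.33 against 0.01 over all genes. Without the 3 female libraries 4 members were higher and 1 was lower, since Runx1 was no longer called, and the same counts were found with voom on whole reads.

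**Figure D2:**
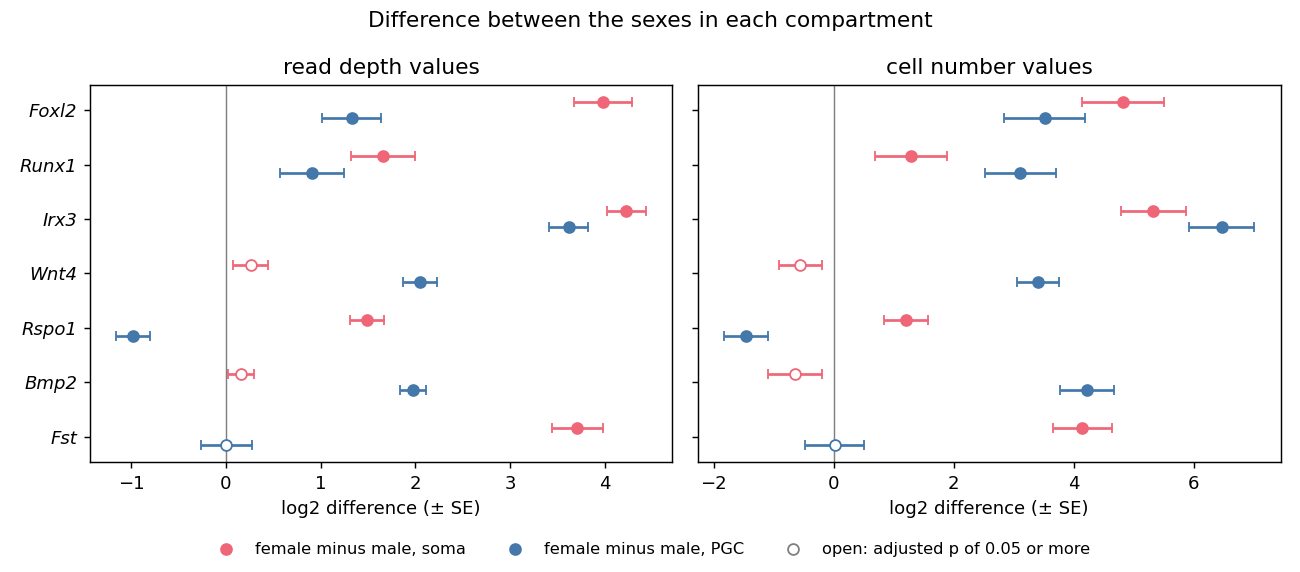
Female minus male log2 difference (± SE) of each gene in soma and in PGCs, in the read depth values and in the cell number values, with filled points for an adjusted p under 0.05. In the read depth values Foxl2, Fst and Rspo1 lie further to the right in soma, as do Irx3 and Runx1 by less. In the same values Wnt4 and Bmp2 lie further to the right in PGCs, and Rspo1 is the only gene left of 0.

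The sex difference itself differed between soma and PGCs for 5 members (limma interaction on the read depth values). It was more female in soma for Fst (3.70 ± 0.38, adjusted p = 2.88e-06), Foxl2 (2.65 ± 0.43, adjusted p = 0.000169) and Rspo1 (2.47 ± 0.25, adjusted p = 3.05e-06). It was more female in PGCs for Wnt4 (-1.79 ± 0.26, adjusted p = 5.67e-05) and Bmp2 (-1.81 ± 0.19, adjusted p = 4.87e-06). Of all genes, 28.9% passed in the first direction and 27.9% in the other, so that 3 and 2 of 7 members are near the share of all genes. The median over the members was 0.75 against 0.01. Without the 3 female libraries 6 members passed, Runx1 being added (1.45, adjusted p = 0.0128), as it also was without female PGC replicate 2 alone (1.22, adjusted p = 0.00903). For Foxl2 the call did not hold on whole reads with limma's voom, which gave 2.38 with an adjusted p of 0.132. Runx1 changed sign with voom (-0.56, adjusted p = 0.75) and was also negative in the cell number values (-1.82 ± 0.84, limma adjusted p = 0.0612). It had 11, 0 and 1 reads in the male PGC libraries.

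Within females, all 7 genes were higher in soma than in PGCs (limma, read depth values), as were 42.3% of all genes. The log2 differences ran from 1.01 ± 0.14 for Bmp2 and 1.44 ± 0.20 for Irx3 to 4.12 ± 0.33 for Runx1, and the median was 3.45 against 0.05 over all genes. The number was also 7 without the 3 female libraries. Within males, 5 of 7 were higher in soma, as were 43.7% of all genes, with a median of 0.98 against 0.06. Wnt4 showed the largest of these differences (5.24 ± 0.18), followed by Runx1 (3.37 ± 0.33) and Bmp2 (2.81 ± 0.14). Foxl2 (0.98 ± 0.31) and Irx3 (0.82 ± 0.20) were also called, at means of at most 1.20 CPM in either male group. The Foxl2 call ended without male PGC replicate 2, the library with 0 reads (0.70, adjusted p = 0.0514), and after quantile normalization (0.41, adjusted p = 0.178). The Irx3 call ended after quantile normalization (0.13, adjusted p = 0.534) and with limma's voom on whole reads (1.99, adjusted p = 0.0511). The comparisons within and between sexes share libraries and are not independent of each other.

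**Figure D3:**
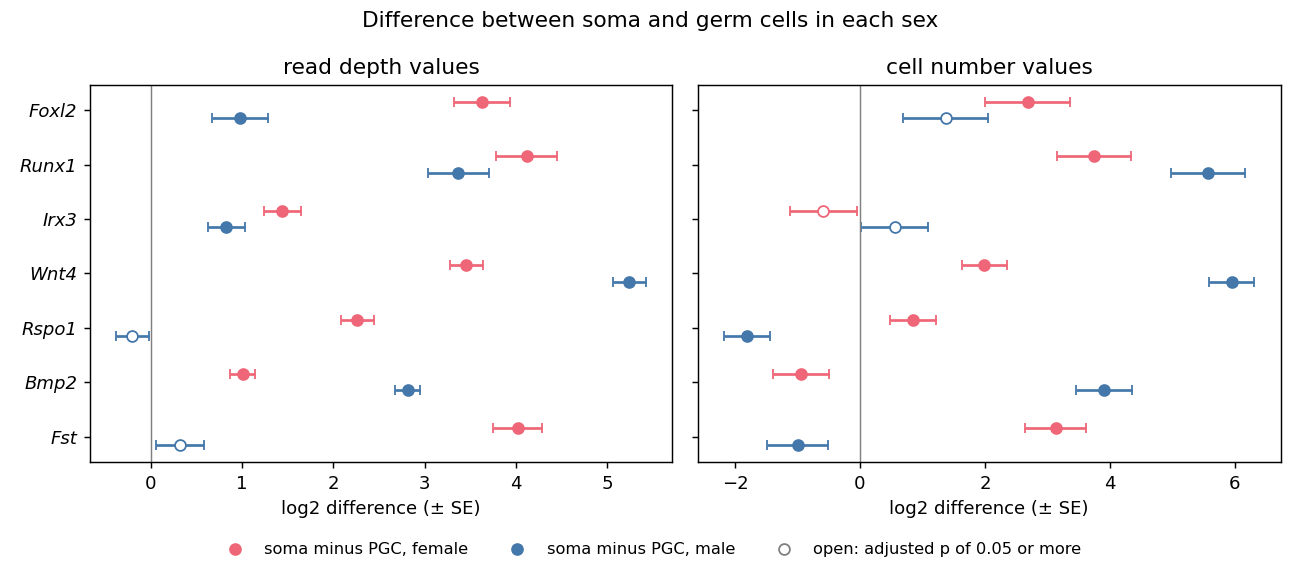
Soma minus PGC log2 difference (± SE) of each gene in females and in males, in the read depth values and in the cell number values, with open points for an adjusted p of 0.05 or more. In the read depth values all 7 genes lie right of 0 in females, while in the cell number values Irx3 and Bmp2 lie left of 0 in females and Rspo1 and Fst do so in males.

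Per cell, the picture changed for several members, because the cell number values place soma lower as a whole. The median log2 value of a library was 3.74 ± 0.191 in female and 4.62 ± 0.545 in male soma, against 5.94 ± 0.126 in female and 5.83 ± 0.0433 in male PGCs (SD, n = 3). Male soma replicate 3 stood apart, with a median of 5.25 against 4.33 and 4.29 in male soma replicates 1 and 2. Between female and male soma the same 5 members were higher, against 2.86% of all genes, and the median over all genes was -0.86. Irx3 differed by 5.32 ± 0.54, Foxl2 by 4.82 ± 0.68, Fst by 4.14 ± 0.49, Rspo1 by 1.20 ± 0.36 and Runx1 by 1.29 ± 0.60. Runx1 was near the threshold (limma adjusted p = 0.0469) and lost the call without any 1 of the 6 soma libraries, with values of 0.96 to 1.70, and without female PGC replicate 2 (adjusted p = 0.0505). Without the 3 female libraries 3 members were higher, and Rspo1 (1.29, adjusted p = 0.313) and Runx1 were not called. The Wnt4 and Bmp2 differences were -0.56 ± 0.36 and -0.64 ± 0.45 (adjusted p = 0.152 and 0.189), and with array weights Wnt4 was called lower in females (-0.39, limma adjusted p = 0.0181).

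Between female and male PGCs, whose overall levels per cell were close (median difference over all genes 0.08), the cell number values called the same 6 members as the read depth values. In females 5 were higher, against 24.3% of all genes, and Rspo1 was lower (-1.46 ± 0.36), against 17.7%. Irx3 had the largest difference, 6.46 ± 0.54, followed by Bmp2 at 4.21 ± 0.45. The interaction called Fst (4.13 ± 0.69) and Rspo1 (2.65 ± 0.52) in the direction of soma, where 5.16% of all genes passed, and Bmp2 (-4.86 ± 0.63) and Wnt4 (-3.96 ± 0.51) in the direction of PGCs, where 42.8% did. Foxl2 was not called there (1.31 ± 0.96, limma adjusted p = 0.252), but was without male PGC replicate 2, its library with 0 reads (2.73, adjusted p = 0.00703). Runx1 was not called either (-1.82 ± 0.84, adjusted p = 0.0612), and passed without male PGC replicate 1, male soma replicate 1 or female PGC replicate 1 or 3 (-2.10 to -3.09). Without the 3 female libraries 5 members were higher and 1 lower in female PGCs, and the interaction called 2 in each direction.

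In females, 5 members were higher per cell in soma than in PGCs, against 11.5% of all genes, and Bmp2 was lower, as were 77.2%. The Rspo1 difference was 0.85 ± 0.36 (limma adjusted p = 0.023), and the call ended without female PGC replicate 1 or 3 or female soma replicate 1 or 3 (0.70 to 0.81). The Bmp2 difference was -0.94 ± 0.45 (limma adjusted p = 0.0397), and the call ended without any 1 of female PGC replicates 1 and 2 or female soma replicates 1 to 3. Without the 3 female libraries neither Rspo1 (1.13, adjusted p = 0.0913) nor Bmp2 (-0.75, adjusted p = 0.378) was called, leaving 4 members higher and 0 lower. Irx3 stood at 5.28 ± 0.0276 in female PGCs and 4.69 ± 0.181 in female soma on the cell number log2 scale (SD, n = 3), and the difference of -0.59 ± 0.54 was not called (adjusted p = 0.295), but was with the compared groups alone in the limma fit (adjusted p = 0.0106). All 3 PGC values of Irx3 lay above all 3 soma values. After median centring or quantile normalization Irx3 was higher in female soma (1.61 and 1.70), as was Bmp2 (1.26 and 0.99), so the direction of both rests on the scaling per cell.

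In males, Wnt4, Runx1 and Bmp2 were higher per cell in soma, against 19.8% of all genes, by 5.95 ± 0.36, 5.57 ± 0.60 and 3.91 ± 0.45. Rspo1 (-1.80 ± 0.36, limma adjusted p = 1.32e-06) and Fst (-0.996 ± 0.49, adjusted p = 0.0484) were lower in soma, as were 64.0% of all genes. The Rspo1 groups did not overlap, at 5.07 ± 0.315 in male PGCs and 3.27 ± 0.433 in male soma. After median centring Rspo1 had an adjusted p of 0.0516 and the Fst difference turned to 0.21. The Fst call also ended without male PGC replicate 2 or 3, male soma replicate 1 or 2, female PGC replicate 2 or any female soma library. Without the 3 female libraries, 3 members were higher and 1 was lower.

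The level of each gene in PGCs was set against the soma mean of its sex, beside genes of other somatic cells. In female PGC replicates 1, 2 and 3, Bmp2 stood at 37.0%, 44.4% and 27.1% of the soma mean and Irx3 at 25.4%, 30.5% and 27.4%. Rspo1 stood at 7.52%, 14.3% and 9.58%, and Wnt4 at 3.90%, 6.40% and 3.79%. Foxl2 (2.02%, 6.98% and 1.54%), Fst (1.24%, 5.10% and 1.38%) and Runx1 (0.54%, 4.67% and 0.87%) were lower. For comparison, the 12 stroma markers summed to 0.94%, 1.24% and 0.92%, and Wt1, a transcription factor of gonadal soma, stood at 0.37%, 2.95% and 0.52%. Nr5a1, a steroidogenic regulator of the soma, stood at 1.31%, 9.32% and 0.14%. Bmp2, Irx3 and Rspo1 had higher shares in each library than the stroma markers, Wt1 and Nr5a1, while Wnt4 was below Nr5a1 in replicate 2. Foxl2 and Fst were nearer to these references, and Runx1 in replicates 1 and 3 was below the stroma share. All 7 genes were highest in replicate 2, as were Wt1, Nr5a1 and the stroma markers, whereas Foxl2os stood at 10.9%, 11.7% and 12.5%. Lists that hold genes of germ cells give higher shares: surface epithelium markers summed to 15.7%, 19.2% and 31.2%, with Lrrn4 at 28.9 CPM in female PGCs, endothelial markers to 44.3%, 47.3% and 69.8%, with Pecam1 at 90.5 CPM, and the Sertoli fate genes, low in female soma, to 47.7%, 52.9% and 56.6%. The part of somatic RNA in the PGC values was not tested.

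**Figure D4:**
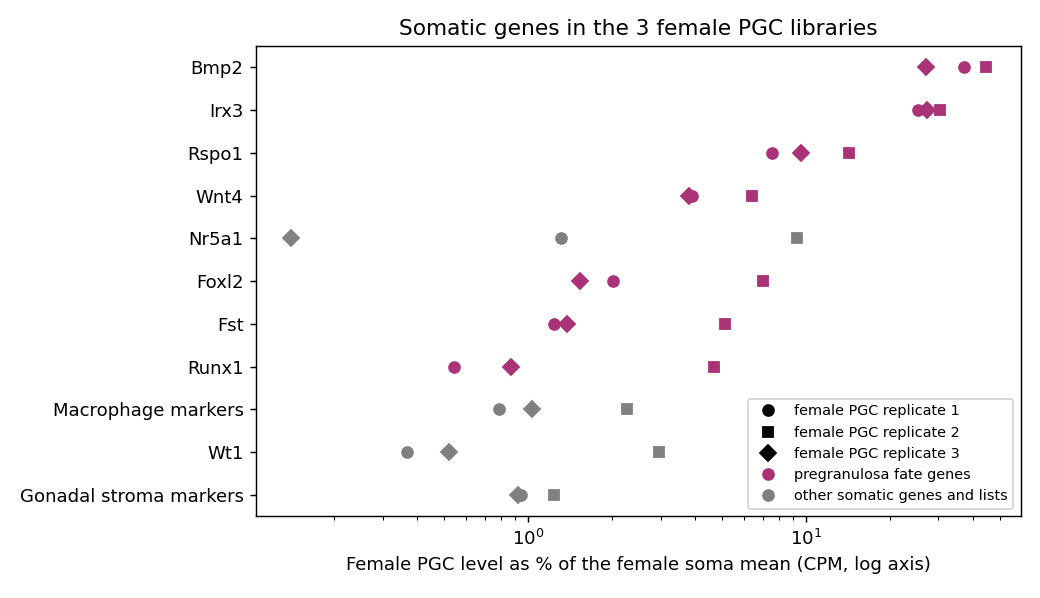
Level in each female PGC library as a percentage of the female soma mean (CPM, log axis) for the 7 genes and for Wt1, Nr5a1, macrophage and stroma references, with a symbol for each replicate. Bmp2 and Irx3 lie between 25.4% and 44.4%, the references lie under 3% except Nr5a1 in replicate 2 (9.32%), and replicate 2 is the highest of the 3 for every item.

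In male PGCs, Rspo1 stood at 122%, 86.7% and 129% of the male soma mean, while Wnt4 was at 0.38% to 0.60% and Bmp2 at 1.42% to 2.79%. The male stroma markers were at 1.37% to 1.93%. Amh, a Sertoli hormone gene, stood at 15.5%, 7.02% and 6.35% in these libraries, and Nr5a1 at 0.79% to 1.23%. Fst stood at 49.2%, 66.7% and 73.1%, and Foxl2 at 27.9%, 0% and 32.9%. Irx3 stood at 17.5%, 26.2% and 10.3%, and Runx1 at 3.60%, 0% and 0.39%. The soma means of Fst, Foxl2 and Irx3 were at most 3.01 CPM. Endothelial markers summed to 50.6%, 64.3% and 51.0%, surface epithelium markers to 42.6%, 67.2% and 54.5%, and Sertoli fate genes to 25.5%, 26.0% and 23.4%. Rspo1 had the highest share of these genes and lists in each library, of the order of its soma level. The part of somatic RNA in these values was not tested.

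Levels between genes were compared per kilobase of exon (RPKM, from CPM and the GENCODE exon length). In female soma, Wnt4 led at 41.5 ± 9.25, followed by Rspo1 at 31.9 ± 7.14, Irx3 at 25.9 ± 3.63, Fst at 21.2 ± 2.51 and Foxl2 at 19.08 ± 3.06 RPKM (SD, n = 3), and each overlapped its neighbour. Bmp2 (7.95 ± 1.09) and Runx1 (5.51 ± 0.974) were below the rest without overlap. The last place of Runx1 rests on its merged exon length, 12025 bases against 1938 to 4589 for the other members. In CPM its mean (66.3) was above Foxl2 (62.1), Rspo1 (61.9) and Bmp2 (28.3), and below Irx3 (71.7), Fst (97.1) and Wnt4 (174). In male soma, Wnt4 led at 32.6 ± 6.58 RPKM, Rspo1 (7.50 ± 1.96) and Bmp2 (6.62 ± 0.532) overlapped, and Runx1 followed at 1.22 ± 0.252. In female PGCs Irx3 led at 7.19 ± 0.671 RPKM without overlap, and Rspo1, Bmp2 and Wnt4 followed at 3.34, 2.88 and 1.95. In male PGCs Rspo1 led at 8.44 ± 1.70 RPKM, and Fst was next at 0.41 ± 0.0813.

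Genes with the most similar profile were ranked by Pearson's r over the 12 libraries in the read depth values, as a description: the libraries share the division into soma and PGC, so many genes reach high values. The profile of Foxl2 was most like those of Trim66 (0.98), Gxylt2 (0.97) and Foxl2os (0.97), and that of Fst most like Anpep (0.97), Trim66 (0.97) and Fam196b (0.97). Wnt4 was most like Fzd1 (1.00), a Wnt receptor, Dchs1 (1.00) and Mex3b (1.00). Rspo1 was most like Bmpr1b (0.96), a BMP receptor, Ccbl2 (0.95) and Chpt1 (0.95). Irx3 was most like Epb4.1l3 (0.98), Crabp1 (0.98) and Susd1 (0.98), Runx1 like Kcnd2 (0.99), Csgalnact1 (0.99) and Ano1 (0.99), and Bmp2 like Klhl7 (0.99), Nr4a2 (0.99) and Nsmf (0.99). Among the members, Foxl2 and Fst (0.96), Wnt4 and Bmp2 (0.95) and Wnt4 and Runx1 (0.94) were closest, and Rspo1 with Bmp2 (0.29) was furthest.

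The surrounding pathways were described from lists of known genes, by counts from the same limma fit on read depth values. Between female and male soma 13.3% of all genes were higher and 11.0% were lower, and between female and male PGCs 32.8% were higher and 32.5% lower. These list counts were not repeated without the 3 female libraries. Of 33 measured receptors, modulators and relatives of Wnt4 and Rspo1, 11 were higher and 5 lower in female than in male soma (median 0.32, against 0.01 over all genes). Lgr5, a receptor for R-spondins, stood at 50.7 CPM in female soma and 5.996 in the male (log2 difference 2.20 ± 0.29, adjusted p = 7.12e-05). Sfrp2, a secreted Wnt antagonist, shared the directions of Rspo1 between the sexes, with means of 197 CPM in female and 44.8 in male soma, against 37.1 in female and 86.2 in male PGCs. It was higher in female than in male soma (1.67 ± 0.15) and lower in female than in male PGCs (-1.05 ± 0.15). Unlike Rspo1, it was called lower in male soma than in male PGCs (-0.85 ± 0.15, limma adjusted p = 0.000108). Sfrp1 and Ctnnb1, the gene of beta-catenin, had differences of 0.02 and -0.17 in soma and were not called.

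Of 12 measured genes that canonical Wnt signals are known to raise, 10 were higher in female soma and 0 were lower, with a median of 0.91. Sp5, a transcription factor, stood at 15.3 CPM in female and 1.81 in male soma (1.80 ± 0.14, adjusted p = 6.7e-07). Ccnd1, which encodes cyclin D1, and Tcf7, a beta-catenin partner, were higher by 0.81 ± 0.06 and 0.54 ± 0.10. In PGCs 8 of the 12 were higher in females and 1 was lower (median 0.90), with Ccnd1 at 198 CPM in female and 18.5 in male PGCs (2.50 ± 0.06) and Tcf7 lower in females (-0.43 ± 0.10).

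Of 26 measured receptors, effectors and targets of Bmp2, 9 were higher and 6 lower in female soma (median 0.06), and in PGCs 16 were higher and 5 lower in females (median 0.52). Id1 and Id3, which BMP signals are known to raise, stood at 105 and 176 CPM in female PGCs and at 3.24 and 13.55 in male PGCs (log2 differences 3.49 ± 0.18 and 2.71 ± 0.15). Msx1, a homeobox gene that BMP signals are known to raise, stood at 149 CPM in female PGCs and 2.21 in male PGCs (4.46 ± 0.24, adjusted p = 5.61e-09). In soma Msx1 was at 12.9 CPM in females and 2.45 in males (1.73 ± 0.24), and Id1 was not called (0.20 ± 0.18, adjusted p = 0.495).

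Of 10 measured activin and inhibin subunits, receptors and effectors around Fst, 2 were higher and 3 lower in female soma, with a median of -0.10. Inha and Inhbb, both inhibin subunit genes, were lower in female soma, at 24.4 against 379 CPM (-3.26 ± 0.20) and 24.9 against 115 CPM (-1.73 ± 0.15). Smad3, which carries activin signals to the nucleus, was not called (0.05 ± 0.11). Of 10 measured relatives and partners of the transcription factors, 3 were higher (Foxl2os and Irx5 among them) and 3 were lower, including Nr5a1 (-2.56 ± 0.45) and Cbfb (-0.33 ± 0.08), whose protein binds DNA together with Runx1. Of 25 other measured genes listed as ovary-biased, 10 were higher and 5 lower (median 0.74), and Aldh1a1 was among the lower ones (-2.95 ± 0.44). This broad list shares genes with the Sertoli, stroma and mesonephric lists, so not each of its genes need be ovary-biased.

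Of 23 measured Sertoli fate genes, 1 was higher and 19 were lower in female soma, with a median of -2.18. Amh stood at 437 CPM in male and 1.34 in female soma (-6.64 ± 0.31), and Cst9 and Clu had differences of -4.59 ± 0.28 and -2.05 ± 0.30. Male soma thus held Wnt4, Bmp2, Rspo1 and Runx1 beside high levels of these Sertoli genes, while Foxl2, Irx3 and Fst were at means of at most 3.01 CPM there.

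On the cell number scale, where the median of all genes was -0.86 between female and male soma, 2.86% of all genes were higher and 63.6% were lower, so that lower counts in a list are read against that share. The medians of 3 lists turned from positive to negative: those of the Wnt4 and Rspo1 partners (4 genes higher and 13 of 33 lower, median -0.46), the Bmp2 list (2 and 10 of 26, -0.79) and the relatives and partners of the transcription factors (2 and 5 of 10, -0.70). In these lists the share of lower genes was below that of all genes, and each median was above that of all genes. The Fst list, negative on both scales, had 0 genes higher and 7 of 10 lower (-1.004). The other genes listed as ovary-biased kept a positive median (0.12), with 6 higher and 9 lower. The canonical Wnt targets kept a positive median, with 5 higher and 0 lower (0.45), and the Sertoli genes a negative one, with 0 higher and 22 lower (-3.92). The 14 macrophage markers had a median of 0.23 per cell, against 0.79 in the read depth values.

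Markers of other cells also differed between female and male soma. Of 7 measured surface epithelium markers all 7 were higher in female soma, and they summed to between 187 and 263 CPM against 54.3 to 77.6. Erythroid markers summed to between 17621 and 29575 CPM in female and between 3422 and 8602 in male soma, with 7 of 9 higher. The 5 mesonephric markers summed to 121 to 215 CPM against 56.9 to 79.2, and 3 were higher. Fetal Leydig markers summed to between 13.9 and 15.3 CPM in female and between 3433 and 4782 in male soma, and all 6 were lower in females. Endothelial sums overlapped, at 190 to 245 against 162 to 255 CPM, with 1 of 10 markers higher and 2 lower. Of the 12 stroma markers, 1 was higher and 4 were lower. No measured marker of these lists was at 0 in all 3 libraries of either soma group. Their part in the soma differences of the 7 genes was not tested.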

How the data were processed

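RNA was measured in 12 libraries, with groups and replicate numbers from the sample titles. Per the submitters' processing notes, the build was mm10 and the tools, with no stated role, were DESeq2 1.12.3, HTSeq 0.6.1p1, TopHat2 2.0.9, limma 3.28.14, Trim Galore 0.4.0, R 3.3.0 and edgeR 3.14.0. The authors deposited 2 tables of log2 values, read here as normalized to cell number (from its abbreviation and the spike-in RNA added per cell) and to read depth. The cell number values of every gene equalled log2 of a whole number of reads plus 0.5 over a library's effective size, within 0.001 reads (100% of values), which gave reads, CPM and RPKM. The log2 transform of the read depth values, not given in the sources used here, compresses low levels, so a log2 difference there is smaller than the ratio of CPM. Every gene had at least 5.07 CPM in 3 libraries, and genes below were not analysed here. Foxl2 and Fst reached this level in female soma only. For them, contrasts of female soma with other groups, the interaction included, were thus partly set in advance.

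Each table was fitted with limma 3.58.1 in R 4.3.3 over 4 group means of all 12 libraries, with a trend of variance on intensity, and p-values over 12845 genes were adjusted by Benjamini-Hochberg (threshold 0.05). With 3 libraries against 3 an exact two-sided permutation test cannot go below 0.1, so none was used. Replicates of a group differed by more than sampling noise, with a chi-square of 5.34 to 29.5 per degree of freedom. Symbols were looked up in GENCODE vM21 (GRCm38), where 12409 matched by current symbol, 386 by an older one, and 12771 had 1 location. Limits for a count of 0 (3 reads) cover counting error only. The fits were also run on simulated data, with group means equal apart from changes set in female soma. That setting does not cover the low PGC counts on which some calls rest. Python 3.11.15, pandas 2.3.3, numpy 2.4.6 and matplotlib 3.10.9 were used.

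The members, lists and tests were chosen with earlier results of these data known. Named genes are the 7 members, for each list up to 4 genes (the 2 highest per kilobase and the 2 that differed most between female and male soma), and the 3 genes most like each member. A gene that this rule names is not reported here. Irx5, Wt1, Pecam1 and the genes of the PGC and soma ratios were added as label or neighbour checks. Alternatives were each library left out, the lowest 25% of genes left out, the compared groups alone, median centring, quantile normalization, no trend, array weights, a replicate block and voom on whole reads. Leaving out 3 female libraries was added after the data were seen.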

Additional observations from a re-analysis of the deposited data

Results flagged for a closer look

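The sex difference was not the same in soma and in PGCs for 5 of the 7 genes, by an interaction term in limma on the read depth values (difference in soma minus difference in PGC, log2 ± SE, adjusted p over 12845 genes). Fst was at 3.70 ± 0.38 (adjusted p = 2.88e-06), Foxl2 at 2.65 ± 0.43 (0.000169) and Rspo1 at 2.47 ± 0.25 (3.05e-06), with the larger female excess in soma. Fst and Foxl2 were kept among the analysed genes through female soma only, which favours this direction. Wnt4 was at -1.79 ± 0.26 (5.67e-05) and Bmp2 at -1.81 ± 0.19 (4.87e-06), with the larger female excess in PGCs. Rspo1 is the member whose libraries separated by sex in opposite directions in the compartments: all 3 female libraries were higher in soma and all 3 were lower in PGCs. By the same test 28.9% of all genes passed in the direction of soma and 27.9% in that of PGCs. On whole reads with limma's voom the Foxl2 call was lost (2.38, adjusted p = 0.132). In the cell number values Fst, Rspo1, Wnt4 and Bmp2 were called in these directions and Foxl2 was not.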

How the results depend on the processing

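Of 1371 member values under alternatives, 1272 kept their direction and their side of the threshold, 46 lost the call, 21 gained it and 32 changed sign, 10 of these in the read depth and 22 in the cell number values. The cause was not tested, apart from the filter, which left 2 members to test. The labels do not tie replicate numbers to animals or days. Deviations of same-numbered libraries from their group means had r from -0.36 to 0.07 (18 pairs, 0 of them over 0.1). With 3 libraries per group, and pairs across the sexes among the 18, these values cannot decide whether same-numbered libraries shared gonads. Pairing thus stays unknown. With a replicate block, 5 members were called between female and male soma and 2908 genes over the read depth table (1584 higher and 1324 lower), and no member count moved by over 1.5 times.

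Leaving out the lowest 25% of genes kept Wnt4 and Rspo1. The members called were then 1 (female minus male soma), 2 (female minus male PGC), 2 (soma minus PGC in females), 1 (in males) and 2 (interaction) in the read depth values and 1, 2, 2, 2 and 2 in the cell number values. The genes called between female and male soma in the read depth values numbered 1870 with this filter and 1439 without the 3 female libraries (one female soma library remaining, assumed to vary like the others), against 3130. In the cell number values they numbered 3678 in the compared groups alone, 2370 after median centring, 3107 after quantile normalization and 468 without the 3 female libraries, where 3 members were called. Genes called between female and male PGCs numbered 8483 after median centring and 8149 with array weights, and in the interaction 2541 without the 3 female libraries.

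Leaving out 1 library at a time gave 5 to 5, 5 to 6, 7 to 7, 4 to 5 and 5 to 6 members called in these 5 comparisons for read depth and 4 to 5, 6 to 6, 4 to 6, 4 to 6 and 4 to 5 for cell number. The genes called ranged from 2273 to 3325, 7678 to 8552, 9971 to 10482, 10223 to 10730 and 6667 to 7267 for read depth, and from 5339 (without female soma replicate 2) to 9134, 4373 to 7352, 11119 to 11609, 10304 to 11290 and 4952 to 6740 for cell number.

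Values that changed sign in the cell number table after median centring were Bmp2 (1.26) and Irx3 (1.61) for soma minus PGC in females, Bmp2 (0.24) and Wnt4 (0.33) between female and male soma, Fst between PGCs (-0.092) and Fst in males (0.21). After quantile normalization they were Bmp2 (0.99) and Irx3 (1.70) in females, Foxl2 (-0.049) and Irx3 (-0.98) in males, Bmp2 (0.26) and Wnt4 (0.44) between soma, Fst between PGCs (-0.46), and the interaction of Irx3 (2.68) and Runx1 (0.40). Array weights gave -0.13 for Fst between PGCs and -0.048 for Irx3 in males. In the read depth table, Fst between PGCs, at 0.01, gave -0.026 after median centring, -0.21 after quantile normalization, -0.16 with array weights, -0.34 with voom and -0.39 without the 3 female libraries (-0.58 per cell). Quantile normalization gave -0.60 for Fst in males, and voom gave interactions of -0.13 for Irx3 and -0.56 for Runx1. Leaving out 1 library moved Fst between PGCs from -0.39 (without female PGC replicate 2) to 0.23 (without female PGC replicate 1) in read depth and from -0.58 to 0.32 per cell, below 0 also without male PGC replicate 1 (-0.090 and -0.13). Per cell in males it moved Foxl2 from -0.045 (without male PGC replicate 2) to 2.12 and Irx3 from -0.32 (without male soma replicate 3) to 1.07. Rspo1 in males became lower in soma in the read depth values after median centring (-0.45) and quantile normalization (-0.70). Counts of 0 to 38 reads for Foxl2, Irx3 and Runx1 in male PGCs, and for Foxl2 and Irx3 in male soma, limit the precision there. So do those of Wnt4 (11, 20 and 13) and Bmp2 (7, 16 and 9) in male PGCs. In female PGCs the counts of Foxl2 (28, 28 and 10), Fst (27, 32 and 14) and Runx1 (8, 20 and 6) were also low.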
